A study of Mus musculus with 8 samples.

Results

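The neutrophil CXC chemokine cluster on mouse chromosome 5 was examined through its H3K27ac-anchored chromatin loops in HPC-7, a progenitor line of mouse blood cells. The cluster was taken as 6 genes: Cxcl5, Ppbp, Pf4, Cxcl3, Cxcl1 and Cxcl2, named here in chromosomal order. The authors' caller joined 5 kb bins into pairs, and pairs with a q-value under 0.01 are called loops. Loops were chosen if either bin held the canonical start site of 1 of the 6 genes, or if both bins lay inside the span of the genes plus 100 kb on each side (GRCm39, chr5:90807186-91153797). Such loops numbered 10 and 3 in p30 cells (UT, then LPS) and 50 and 33 in p42 cells, and sets of 4 values follow this order throughout. Counted once each, these were 65 bin pairs out of 214313 in all lists.

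HPC-7 cells express very little endogenous CEBPA, and the study introduced its isoforms by stable transduction. The cells carried either p42, the full-length CEBPA, or p30, the shorter form that leukaemia-associated mutations leave, so the isoforms were supplied ectopically and not from the native gene. The study's methods describe HPC-7 lines with the isoforms fused to ERT2, which 4-OHT brings into the nucleus, and the study also used lines with forms that were not fused. The HiChIP methods do not name the line or 4-OHT. Each line was left untreated (UT) or received the TLR4 ligand lipopolysaccharide (LPS) at 100 ng/mL for 2 h. HiChIP ligates DNA fragments that are near each other in the nucleus and enriches by antibody those that carry H3K27ac, a mark of active promoters and enhancers. There were 2 libraries per group and 8 in all, but 1 pooled list per group. No spread between replicates could be measured, no p-value is given for any difference, and each comparison is between pooled libraries rather than between conditions.

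CXC chemokines are small secreted proteins that guide leukocytes along a gradient. Cxcl1, Cxcl2, Cxcl3 and Cxcl5 attract neutrophils through the receptor Cxcr2, and Ppbp gives rise to a further Cxcr2 ligand that platelets store. Pf4 encodes platelet factor 4, another platelet granule chemokine, which does not act mainly as a neutrophil attractant. LPS acts on myeloid cells through Tlr4 and NF-kB, and the neutrophil-attracting ligands are classical NF-kB targets, while Ppbp and Pf4 are known as megakaryocyte genes.

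The 120 bases before each start site were read from GRCm39 and are shown because 4 of the 6 promoters share a run of letters close to an NF-kB motif. All lie on the plus strand. Capitals mark matches, on either strand, to the 11 letters GGGAATTTCCC, the longest run that the promoters of Cxcl5, Cxcl3, Cxcl1 and Cxcl2 share in these 120 bases, to an NF-kB consensus of 10 letters, to the CEBP core TTGCNNAA, to the AP-1 motif TGANTCA, to TGATGCAA, a composite of CEBP and ATF sites, and to TATAAA. The 11 letters hold 2 overlapping matches to the NF-kB consensus. They were searched for after the promoters had been read, and the 4 genes were picked for sharing such a match.
Cxcl5, chr5:90907117-90907236: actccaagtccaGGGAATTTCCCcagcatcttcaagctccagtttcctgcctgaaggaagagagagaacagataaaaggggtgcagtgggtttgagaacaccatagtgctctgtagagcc
Cxcl3, chr5:90933842-90933961: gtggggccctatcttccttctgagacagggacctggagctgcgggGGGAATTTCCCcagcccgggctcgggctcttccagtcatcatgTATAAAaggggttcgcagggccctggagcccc
Cxcl1, chr5:91038974-91039093: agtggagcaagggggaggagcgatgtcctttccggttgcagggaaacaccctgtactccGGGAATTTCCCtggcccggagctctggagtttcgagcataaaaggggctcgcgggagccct
Cxcl2, chr5:91051610-91051729: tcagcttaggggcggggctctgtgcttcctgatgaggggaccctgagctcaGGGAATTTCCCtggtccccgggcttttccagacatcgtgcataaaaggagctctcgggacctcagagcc
Ppbp, chr5:90916251-90916370: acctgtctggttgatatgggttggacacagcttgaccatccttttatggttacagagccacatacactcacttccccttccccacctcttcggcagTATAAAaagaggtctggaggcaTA
Pf4, chr5:90920137-90920256: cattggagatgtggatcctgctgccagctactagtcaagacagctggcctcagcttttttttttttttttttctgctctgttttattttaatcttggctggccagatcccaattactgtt

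The same 11 letters began at position -108 from the start site of Cxcl5, -75 from that of Cxcl3, -61 from that of Cxcl1 and -69 from that of Cxcl2. Among the promoters of 21751 protein-coding genes, taken from 250 bases before to 50 after the start site, 11 held these letters (0.0506%), and 4 of the 11 belonged to this cluster. The 4 ligand genes are close relatives, so their promoters are not independent sequences. The looser NF-kB consensus was found in 8.97% of all promoters. Ppbp and Pf4 held neither form in the same window. Ppbp held 1 AP-1 match, at position -198, and 2 matches to TATAAA, of which the second starts at the end of the sequence shown. Pf4 held 2 matches to the CEBP core, at -230 and -175, and Cxcl5 held 1 at -199. The CEBP core was present in 10.7% of all promoters and the AP-1 motif in 7.14%, so these single matches are common. A match describes the letters of the window and does not show that a factor binds there.

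The outermost bins of the cluster loops lay at chr5:90800001-90805000 and chr5:91050001-91055000, and Mthfd2l, the other protein-coding gene with a start site in the window besides Cxcl15, took part in none. Apart from the start-site bins, most partners lay in a block of bins upstream of Cxcl5 (chr5:90800001-90850000), whose near end was 57.2 kb before the Cxcl5 start site and 202 kb before that of Cxcl2. Its proximal bins, from chr5:90830001 on, are intergenic, and the distal ones overlap the lncRNA Gm71716. Beside it, a block from Cxcl5 to Cxcl15 (chr5:90905001-90945000) and a block around Cxcl1 and Cxcl2 (chr5:91025001-91055000) are used below. These blocks were drawn after the loops had been seen and serve as names.

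**Figure D1:**
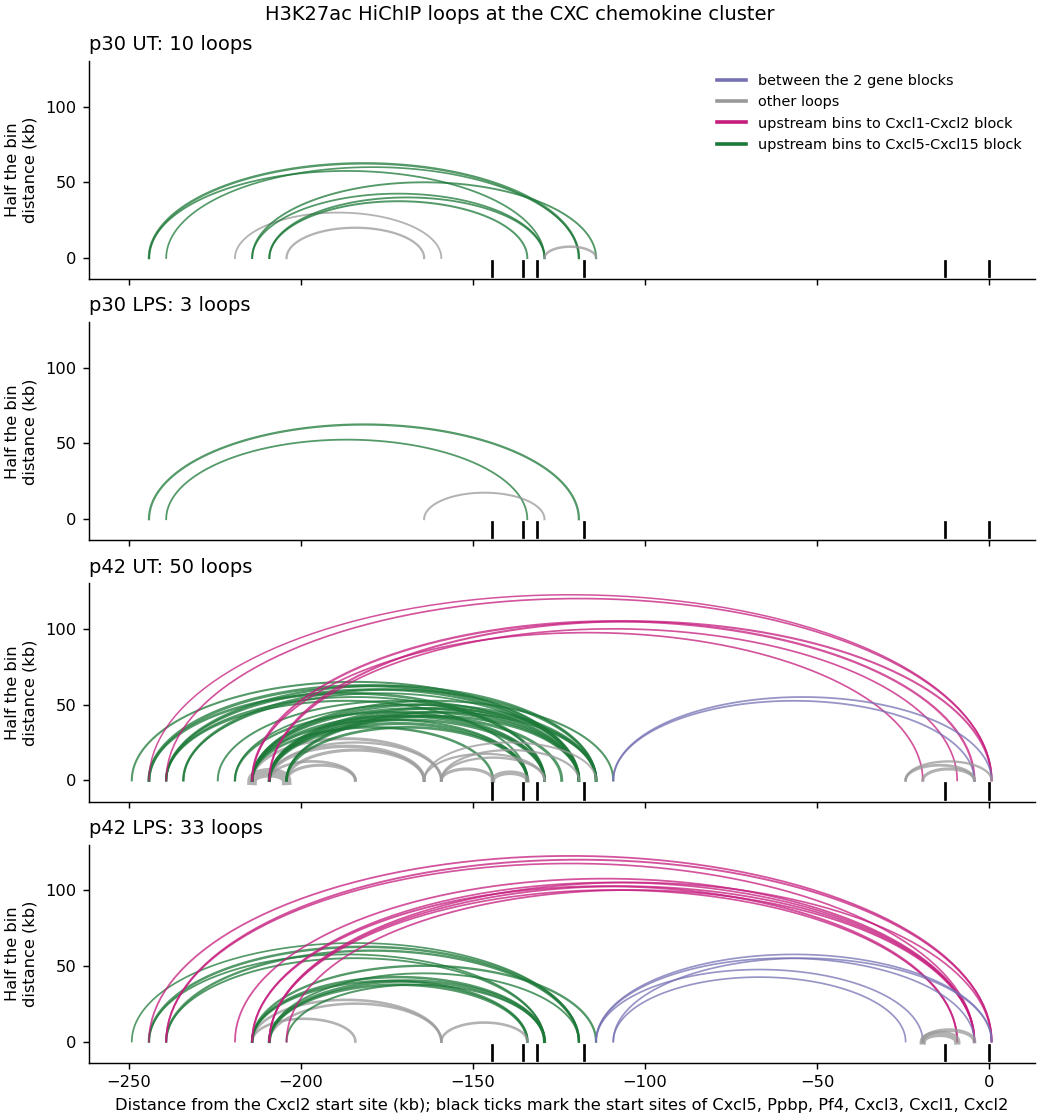
Loops of the cluster in the 4 lists, plotted against the distance from the Cxcl2 start site in kb, with the height of an arc equal to the bin distance divided by 2. Line width grows with the contact count, and colours give the blocks that a loop joins. The p42 lists held 50 and 33 loops, the p30 lists 10 and 3, and arcs that end in the block around Cxcl1 and Cxcl2 appear in the p42 panels alone.

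Of the 6 genes, Cxcl3 and Pf4 had the most promoter loops, that is loops with a bin that held the start site. Cxcl3 had 2, 1, 10 and 4 promoter loops. Pf4 had 4, 1, 7 and 5. Each of these genes was thus looped in every list, with the most loops in p42 UT and the fewest in p30 LPS. Ppbp had 1 loop in each p30 list and, with p42, 5 in UT and 3 after LPS. Cxcl2 differed from these 3 genes. It had no loop in either p30 list and 5 in each p42 list. Cxcl5 had 3 loops in p42 UT and none in the other lists. Cxcl1 had none in any list, although the bins on both sides of its start-site bin took part in loops.

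The lists differ in length, at 80489, 94609, 158233 and 78591 loops, so the same genes were also counted in lists cut to the 78591 loops with the smallest q-values. There Cxcl3 had 2, 1, 7 and 4 loops, Pf4 4, 0, 4 and 5, Ppbp 1, 1, 2 and 3, and Cxcl2 0, 0, 1 and 5. Cxcl5 retained 1 loop in p42 UT. At equal list size Cxcl3 remained highest in p42 UT, whereas Ppbp, Pf4 and Cxcl2 had their highest counts in p42 LPS. The cut leaves p42 LPS whole, with q-values under 0.01, and holds the longer lists to smaller q-values.

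**Figure D2:**
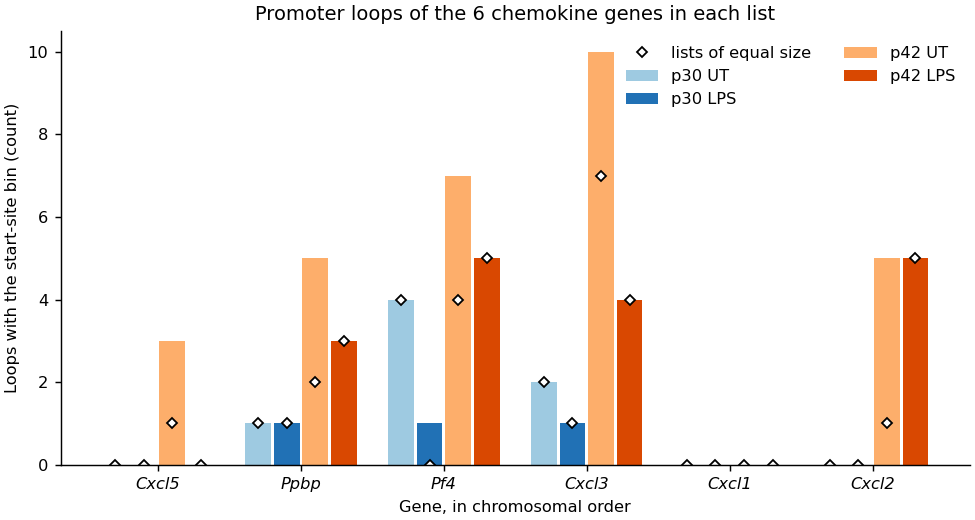
Promoter loops per gene in the 4 lists as deposited (bars, count of loops) and in lists cut to equal size (diamonds). Cxcl3 reached 10 loops in p42 UT, Cxcl2 had 5 in each p42 list and 0 in each p30 list, and Cxcl1 had 0 throughout.

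In untreated cells, all 5 genes with a loop in either list had more promoter loops with p42 than with p30, but so did 81.9% of all genes with a loop in either list. Once list size was made equal, 4 of the 5 had more with p42, against 41.8% of all genes, and Pf4 had the same number in both. After LPS, 4 of 4 genes had more loops with p42 than with p30, against 23.6% of all genes as deposited, and again 4 of 4 against 33.7% at equal size. The median difference over the 6 genes after LPS was 2.5 loops at either list size, and over all genes with a loop it was -1 as deposited and 0 at equal size. These genes share bins, partners and libraries, so their counts are not independent of each other. Promoter loops in both p42 lists and in neither p30 list, the pattern of Cxcl2, were found for 294 of 21751 genes (1.35%), and for 0.906% of genes at equal list size.

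LPS within each line moved these counts in unequal ways. In p30 cells, 2 of the 3 looped genes, Pf4 and Cxcl3, had fewer loops after LPS, as had 27.6% of all genes. Ppbp had 1 in each p30 list, but with different partner bins. In p42 cells, 4 of 5 genes had fewer loops after LPS, but the LPS list was shorter and 87.3% of all genes had fewer. At equal list size Ppbp, Pf4 and Cxcl2 had more loops after LPS in p42 cells, against 31.8% of all genes, and Cxcl5 and Cxcl3 had fewer, against 46.4%. That cut holds p42 UT to a smaller q-value than p42 LPS. At the same q-value in both lists, the 6 genes together had more promoter loops in p42 UT. These were 20 against 10 under 0.001, and 14 against 6 under 1e-05.

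Over the whole cluster, the share of a list's loops was highest in p42 LPS. Per 10000 loops of a list, the cluster held 1.24, 0.317, 3.16 and 4.20. For comparison, the genome was divided into windows of the same length, 347 kb, and windows with at least 10 loops in either list were kept. After LPS, the loop count with p42 was at least 5 times that with p30 in 9 of 1564 such windows (0.575%), and the cluster held 33 against 3. At equal list size this was 33 against 2, and 1.75% of windows reached that ratio. In untreated cells the cluster held 50 loops against 10, a ratio of at least 5 that was found in 8.66% of windows. At equal list size it held 26 against 10, and 18.8% of windows had at least 1.5 times as many in p42. Within p42 cells the equal-size lists held 26 loops in UT and 33 after LPS, a ratio below 1.5, with p42 UT cut at a smaller q-value.

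Median contacts over expected were 5.72, 5.64, 5.92 and 5.95, and over all loops of these lists it was between 4.24 and 4.34. Distances differed as well, with medians of 82.5, 105, 90 and 110 kb against 45, 35, 40 and 40 kb over whole lists. Among all loops of the same distances, the typical ratio (the median over cluster loops of the median at their distance) was 5.59, 6.01, 5.46 and 6.14, and 8 of 10, 1 of 3, 31 of 50 and 17 of 33 cluster loops lay above the median at their distance. Of the cluster loops, 9 of 10, 2 of 3, 41 of 50 and 29 of 33 joined 2 bins with an H3K27ac peak, where 88.7%, 91.2%, 90.8% and 91.3% of all loops did. The contacts behind a loop were few, with medians of 11, 12, 16 and 11, and counting error is accordingly wide.

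A single loop was present in all 4 lists, and it joined Cxcl3 to the distal part of the upstream block. The bin chr5:90805001-90810000, in an intron of Gm71716, contacted the Cxcl3 start-site bin (chr5:90930001-90935000) 17 and 15 times with p30 (UT, then LPS), and 24 and 18 times with p42. Its ratio over expected was the highest of all cluster loops in each list, at 14.3, 12.8, 16.8 and 13.0. Per modelled contact, the count in p42 UT was 1.34-fold that in p30 UT and the count in p42 LPS 1.10-fold that in p30 LPS. In both cases the 95% interval of the share from p42 (43.4% to 72.2% in UT, 38.0% to 70.2% after LPS) held the share given by the library sizes, 51.4% and 52.2%. The difference between the isoforms was therefore not detectable for this loop at this depth.

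Matches to the CEBP core and to the AP-1 motif lay within 50 bases of each other in 10 of the 51 bins from the first to the last looped bin, and in 5 of the 20 that held a peak. The stretches of the 2 peak bins in the upstream block are shown because 1 lies in the bin of the loop present in every list and the other in the bin with the highest coverage. Both are from the plus strand of GRCm39, with 20 bases on either side, and capitals mark the matches, which may lie on either strand.
Gm71716 intron bin, chr5:90808693-90808767: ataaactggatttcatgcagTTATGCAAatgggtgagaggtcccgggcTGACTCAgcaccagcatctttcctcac
Intergenic bin, chr5:90837718-90837804: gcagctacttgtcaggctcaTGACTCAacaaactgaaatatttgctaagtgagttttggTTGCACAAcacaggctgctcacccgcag
The matches are 20 bases apart in the first stretch and 32 in the second. Of 64985 peak bins in the genome, 6.66% held a pair this close. In these bins of 5 kb a match to either motif alone is usual, since 85.8% of peak bins held the CEBP core and 77.4% the AP-1 motif. Among the same 51 bins, 4 held the 11 letters found in the promoters, and these were the start-site bins of Cxcl5, Cxcl3, Cxcl1 and Cxcl2.

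Pf4 and Ppbp contacted both the proximal, intergenic part of the upstream block and its distal bins in Gm71716. In p30 UT, the Pf4 start-site bin (chr5:90920001-90925000) was contacted 10 times by chr5:90835001-90840000 and 11 times by chr5:90840001-90845000. In p42 UT the same pairs had 21 and 20 contacts, and in p42 LPS 18 and 26. The distal bin chr5:90805001-90810000 contacted Pf4 10 times in p30 UT, at 7.34 times the expected count, and 20 and 10 times in UT and LPS of p42 cells, at 12.2 and 6.32 times. The next bin, chr5:90810001-90815000, contacted Pf4 11 times in each p42 list. None of these pairs was listed in p30 LPS, where the 1 Pf4 loop joined a bin 35 kb upstream with 12 contacts. Ppbp (chr5:90915001-90920000) was joined to chr5:90840001-90845000 with 12 contacts in p30 UT and with 25 and 20 in UT and LPS of p42 cells. Its loop in p30 LPS led to chr5:90810001-90815000 with 10 contacts, a pair that had 13 in p42 UT. Cxcl5 (chr5:90905001-90910000), in p42 UT, was joined to chr5:90835001-90840000 with 18 contacts, to the Ppbp bin with 42 and to a bin 15 kb upstream with 25.

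For Cxcl3, 9 of the 10 promoter loops in p42 UT ended in the upstream block, with 10 to 24 contacts and at 85 to 130 kb. The remaining loop led 40 kb upstream. All 4 loops in p42 LPS and both in p30 UT ended in the block as well. The upstream block therefore joined the start sites of Cxcl5, Ppbp, Pf4, Cxcl3 and Cxcl2 in p42 UT, and in p42 LPS those of Ppbp, Pf4, Cxcl3 and Cxcl2. The bin next to the Cxcl3 start site (chr5:90935001-90940000), which holds the 3' part of the gene, was contacted by chr5:90835001-90840000 11 times in p30 UT, and 21 and 16 times in UT and LPS of p42 cells.

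Contacts can be compared between lists only for loops that both list. Untreated p42 and p30 cells shared 8 cluster loops, which were 80% of those in p30 UT and 16% of those in p42 UT. They held 170 contacts in p42 UT and 95 in p30 UT. The p42 share was 64.2% (95% Wilson interval 58.2% to 69.7%), above the 51.4% expected from the number of modelled contacts, and the ratio per modelled contact was 1.69. The count was higher in p42 UT for each of the 8 loops, and 6 passed 1.5-fold, as did 19.3% of the 59069 loops in both lists. The median ratio was 1.76 for these 8 and 1.15 for all loops in both lists. The caller's expected counts, which take account of coverage, would give a p42 share of 60.0%, which lies inside the interval. These intervals cover counting error alone.

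After LPS only the Cxcl3 loop described above could be compared between the isoforms, and the same loop was the only one that could be compared between p30 LPS and p30 UT, with 15 and 17 contacts. The p42 lists shared 20 loops, which were 60.6% of those in p42 LPS and 40% of those in p42 UT. They held 298 contacts after LPS and 329 in UT, a share of 47.5% (43.6% to 51.4%) against 45.5% by modelled contacts. The ratio per modelled contact ranged from 0.60 to 1.71, and 3 loops passed 1.5-fold upward and 2 downward. Over all 59847 loops in both lists, 3.76% passed upward and 12.9% downward. The median ratio was 1.05 for these 20 and 0.913 for all loops in both lists. Per modelled contact, the cluster loops that both p42 lists held were thus close to equal as a group, and above the median of all loops.

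**Figure D3:**
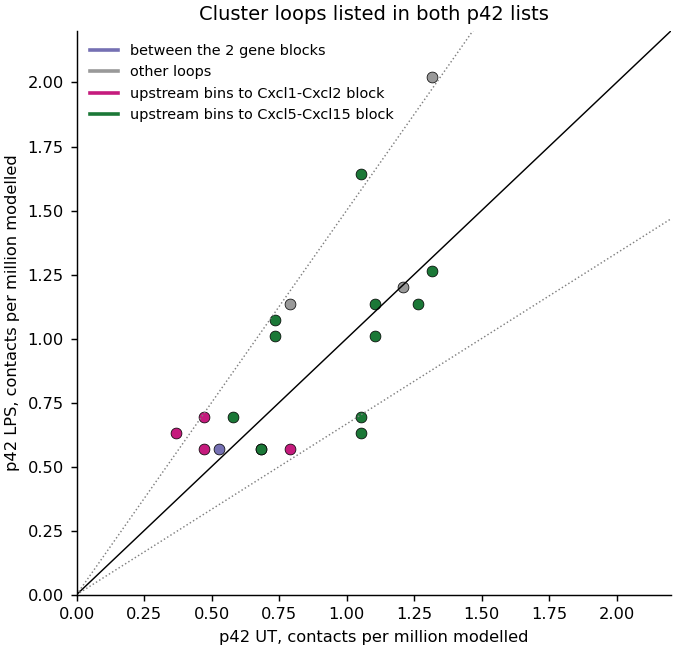
Contacts per 1000000 modelled contacts of the 20 cluster loops listed in both p42 UT (horizontal axis) and p42 LPS (vertical axis), with 1 pair of points coinciding. The solid line marks equal values and the dotted lines 1.5-fold. Of the 20 loops, 11 lay above the solid line, 3 beyond the upper and 2 beyond the lower dotted line.

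What differed between the p42 lists was which pairs were listed. Loops from the upstream block to the block of Cxcl5 to Cxcl15 numbered 26 in p42 UT and 12 in p42 LPS, or 20 and 12 at equal list size. Loops from the upstream block to the block of Cxcl1 and Cxcl2 numbered 6 in p42 UT and 10 in p42 LPS, or 2 and 10 at equal size. Loops between both gene blocks numbered 2 and 5, or 0 and 5. A pair that is missing from a list has an unknown number of contacts, so these counts do not show that it was absent. The cut to equal size also leaves p42 LPS whole and holds p42 UT to a smaller q-value, so the cutoffs are unlike. At the same q-value in both lists the whole cluster held more loops in p42 UT. These were 34 against 18 under 0.001, and 23 against 10 under 1e-05. For the 5 loops from the upstream block to Cxcl1 and Cxcl2 that both lists held, contacts numbered 53 in UT and 48 after LPS, 1.09-fold per modelled contact, and the p42 LPS share was 47.5% (38.1% to 57.2%) against 45.5%. An increase in those contacts was not detectable at this depth.

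Cxcl2 kept 4 of its 5 partner bins between the p42 lists. With chr5:90805001-90810000, at 245 kb, its start-site bin (chr5:91050001-91055000) had 7 contacts in UT and 10 after LPS. With chr5:90810001-90815000 it had 9 and 11, with chr5:90840001-90845000 13 and 9, and with the Cxcl15 start-site bin (chr5:90940001-90945000) 10 and 9. The partner in p42 UT alone was chr5:91025001-91030000, 25 kb upstream, with 16 contacts. The partner in p42 LPS alone was the bin with the 3' part of Cxcl3, with 9 contacts. None of these pairs was in a p30 list, and their contacts in p30 cells are unknown.

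Around Cxcl1, the bin after its start-site bin (chr5:91040001-91045000) holds the 3' end of the gene. It was contacted 9 times by chr5:90840001-90845000 in each p42 list, and 12 times by chr5:90835001-90840000 in p42 LPS. In p42 LPS it also had 60 contacts with chr5:91030001-91035000, on the other side of the start-site bin and in the lncRNA Gm73427, 2.35-fold the expected count. The bin between Cxcl1 and Cxcl2 (chr5:91045001-91050000), within the lncRNA Gm73232, had 4 loops in p42 UT and 7 in p42 LPS.

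Coverage, the number of reads in a bin, gives the H3K27ac signal more directly, but a list gives it only for bins that take part in a loop. It was divided by the mean coverage of peak bins in the list: 2406, 2239, 2911 and 1939 reads. The upstream block stood out. Its bin chr5:90835001-90840000 had 3772 reads in untreated p30 cells, 12261 in untreated p42 cells and 6975 after LPS in p42 cells, which is 1.57, 4.21 and 3.60 times the mean. The next bin, chr5:90840001-90845000, had 1.13, 3.90 and 3.21 times the mean. Normalized coverage in p42 UT was thus 2.69-fold and 3.44-fold that in p30 UT. Of the 5 peak bins of the block that both lists covered, 4 passed 1.5-fold and all 5 were higher in p42 UT, while 4.78% of all peak bins in both lists passed 1.5-fold upward. In p30 LPS the proximal bins took part in no loop and have no value. The distal peak bin chr5:90805001-90810000 was 1.75-fold higher in p42 LPS than in p30 LPS, where 3.87% of peak bins passed 1.5-fold, and 1.39-fold higher by modelled contacts.

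The start-site bins differed less. Cxcl3 had 0.42, 0.44, 0.74 and 0.78 times the mean. Pf4 had 0.86, 1.03, 1.45 and 1.47, and Ppbp 0.64, 0.77, 0.91 and 1.06. The coverage of these 3 bins was higher with p42 than with p30 under either treatment, with ratios of 1.42 to 1.75 in UT and 1.38 to 1.76 after LPS. In UT 2 of the 3 passed 1.5-fold, against 4.78% of peak bins, and after LPS 1 of 3 did, against 3.87%. By the peak-bin mean LPS changed them little, with ratios of 1.05 to 1.20 in p30 cells and 1.01 to 1.17 in p42 cells. Scaled by modelled contacts, the ratios were 1.21 to 1.39 in p30 cells and 0.81 to 0.93 in p42 cells. For p42 over p30 in UT, that scaling gave 1.63 for Ppbp, 1.94 for Pf4 and 2.00 for Cxcl3. All 3 passed 1.5-fold, against 10.7% of peak bins. After LPS it gave 1.09 to 1.40 for p42 over p30, with none past 1.5-fold, against 0.911% of peak bins. Cxcl5 had a value in p42 UT alone, 0.62.

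At the other end of the cluster the p42 lists differed from each other. The Cxcl2 start-site bin had 1459 reads in p42 UT and 2046 in p42 LPS, which is 0.50 and 1.06 times the mean, a 2.11-fold increase. The bin between Cxcl1 and Cxcl2 went from 0.85 to 1.78 (2.08-fold), and the bin with the 3' end of Cxcl1 from 0.65 to 1.26 (1.94-fold). The 2 bins before the Cxcl1 start site showed 1.57-fold and 1.36-fold. Of the 5 bins of this block in both lists, 4 passed 1.5-fold, as did 1.58% of 40939 peak bins, and 2 passed 2-fold, as did 0.205%. Scaled by the number of modelled contacts instead, the Cxcl2 bin was 1.68-fold higher and 3 of the 5 bins passed, as did 0.298% of peak bins. In the upstream block none of 6 peak bins passed 1.5-fold in either direction between p42 LPS and p42 UT, with ratios of 0.82 to 1.33, and 1.16% of all peak bins fell past it. By modelled contacts those ratios were 0.66 to 1.06, and chr5:90840001-90845000 passed 1.5-fold downward, as did 13.2% of peak bins. The p30 lists hold no loop in the block of Cxcl1 and Cxcl2, so its coverage in p30 cells is not known from these lists.

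**Figure D4:**
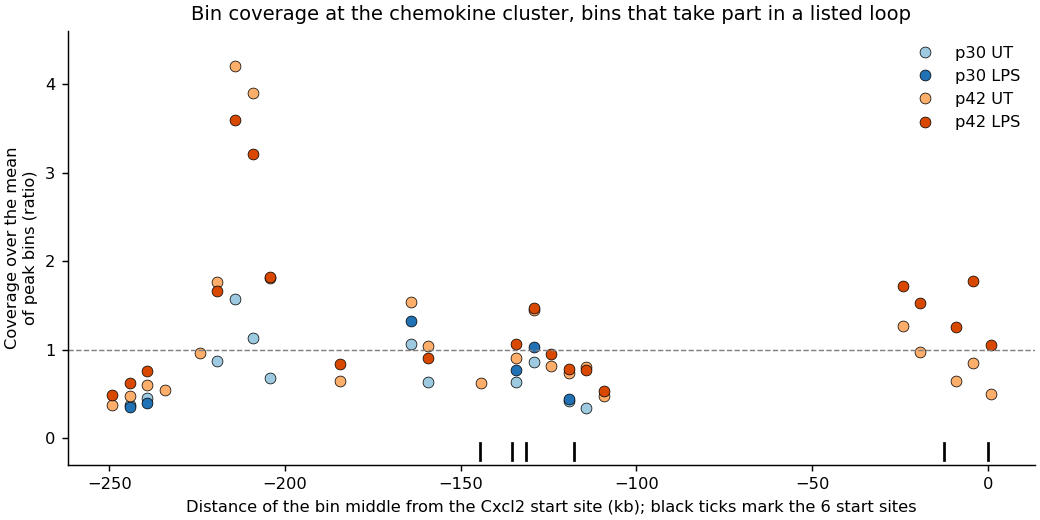
Coverage of the bins over the mean of peak bins (vertical axis, ratio) against the distance of the bin middle from the Cxcl2 start site (kb), for bins in a listed loop. Upstream bins near -214 and -209 kb reached 4.21 and 3.90 in p42 UT, and the bins from -24 to 1 kb, which have values in the p42 lists alone, were higher in p42 LPS than in p42 UT.

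Other genes of the same pathway were looped as follows, where 48.3% of all protein-coding genes were looped in any list. Of 9 further CXC ligand genes, 2 had a promoter loop in any list. Cxcl15, which lies within the cluster, had 0, 0, 3 and 2 loops, and Cxcl10, an interferon-induced ligand, had 0, 1, 0 and 2. Of 8 receptor genes, 6 were looped. Cxcr2, the receptor of the neutrophil-attracting ligands, had 4, 4, 13 and 2 loops (4, 3, 7 and 2 at equal list size). Cxcr4, the receptor of Cxcl12, had 8, 4, 23 and 9 (8, 3, 14 and 9). Of 10 genes from Tlr4 to NF-kB, 9 were looped. Nfkbia, which encodes the NF-kB inhibitor, had 9, 23, 26 and 20 loops (9, 19, 17 and 20 at equal list size). Rela, an NF-kB subunit, had 10, 15, 16 and 9 (9, 15, 8 and 9). In p30 cells, 8 of the 8 with a loop in either list had more after LPS, where 53.1% of all such genes did, and again all 8 against 42.3% at equal list size. None of the 3 cluster genes with a loop in p30 cells had more. In p42 cells, 1 of the 10 pathway genes had more after LPS and 8 had fewer, where 87.3% of all genes had fewer. At equal list size 5 had more and 0 fewer, against 31.8% and 46.4% of all genes.

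Genes with similar loop counts were sought for Cxcl3 and Pf4, the cluster genes with the most loops. Rbm33 had the same 4 counts as Cxcl3, and 6 genes outside the window, Rbm33 included, came within a sum of absolute differences of 1 over the 4 lists. For Pf4, 11 genes came within a sum of 2. Rbm33 is named because its counts were identical.

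The labelled cell type was checked by promoter loops of marker genes. All 9 progenitor markers, such as Kit and Runx1, had loops in each list, where 37.2%, 38.7%, 44.8% and 35.1% of all protein-coding genes had one. Of 10 megakaryocyte and platelet markers, which bear on Ppbp and Pf4, 7, 7, 7 and 4 were looped, with Gp1bb, Gp6 and Vwf in none. Of 10 macrophage markers 4, 4, 4 and 3 were looped, of 5 lymphoid markers 2, 1, 2 and 1, and of 5 markers of other tissues 1 in p42 UT. The part of any such cells in the loops of the cluster was not tested. In libraries from many cells, a change in the share of cells with a loop cannot be told apart from a change in contacts per cell.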

How the data were processed

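H3K27ac HiChIP was carried out in 8 libraries, 2 per group. Per the study's methods, reads were mapped to mm39 with BWA-MEM 0.7.17, ligation products were processed with pairtools and loops were called with FitHiChIP. The bins of the deposited lists are 5 kb long. How replicates were pooled is not given in the sources used here. The authors deposited 4 lists of 26 columns, of which 11 were used: the contact count and the read coverage per bin (raw whole numbers), the flag for peaks, the coverage bias (a ratio to the mean of the bin class), the expected contacts (a signal from distance and bias), the contact probability (a fraction) and the p-value and q-value. The caller corrects for coverage and lists significant pairs alone.

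The number of modelled contacts, 14503330 to 18999991 per list, was taken from expected contacts over probability, and the mean coverage of peak bins from coverage over bias. Start sites are those of GENCODE M39, and sequences were read from GRCm39, the assembly behind mm39. The calculations used Python 3.11.15 and pandas 2.3.3 and were tested on simulated data. A fold of 1.5 was called. The named genes were the 6 members, protein-coding genes with a start site in the window or in a partner bin, and examples from the 4 genes with the most loops in each pathway list. Markers named are examples, and platelet markers without loops are named as such. Rbm33, the blocks and the 11-letter motif were chosen after their values were seen. The members and lists were chosen with earlier results of these data known. Alternatives were stricter q-values, at least 5 contacts, equal list size, neighbouring bins, other windows, merged pairs and other scalings.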

Additional observations from a re-analysis of the deposited data

Results flagged for a closer look

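The lists with and without LPS differed in opposite directions in p30 and p42 cells for 1 loop and 2 bins, and none of these differences was tested, because each group has 1 pooled list. For the Cxcl3 loop found in every list (chr5:90805001-90810000 to chr5:90930001-90935000), contacts per modelled contact changed with LPS by 0.13 on the log2 scale in p30 cells and by -0.15 in p42 cells. Both lay within counting error: LPS gave 46.9% of the p30 contacts (Wilson, 30.9% to 63.6%) and 42.9% of the p42 contacts (29.1% to 57.8%), where library sizes alone give 44.7% and 45.5%. Divided by expected contacts, the same loop was lower after LPS in both lines, going from 14.3 to 12.8 in p30 cells (-0.17 on the log2 scale) and from 16.8 to 13.0 in p42 cells. Coverage over the peak-bin mean changed by -0.08 in p30 and 0.40 in p42 cells at chr5:90805001-90810000, and by -0.18 and 0.34 at chr5:90810001-90815000, a bin without a peak in these lists. Over the mean of bins without a peak, a scaling chosen after the values were seen, the latter bin changed by 0.35 and -0.29. Scaled by modelled contacts instead, neither bin moved in opposite directions.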

How the results depend on the processing

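No paired analysis was possible because the replicates of each group are pooled in 1 list. For the same reason no replicate was left out. Promoter loops of the 6 genes numbered 7 and 3 with p30 (UT, then LPS) and 29 and 17 with p42. At a q-value under 0.001 they fell to 3, 1, 20 and 10 in the 4 lists, and under 1e-05 to 1, 1, 14 and 6. All cluster loops fell to 5, 1, 34 and 18 in the 4 lists under 0.001, and to 1, 1, 23 and 10 under 1e-05. With lists of equal size, p42 UT held 15 promoter loops and 26 cluster loops. Neighbouring bins raised promoter loops to 47 and 33 in the p42 lists. A window of 50 kb on each side left 33 cluster loops in p42 UT, and merging touching pairs left 16 and 12 in the p42 lists. Under each of these settings both p42 lists held more loops than both p30 lists. Requiring 1 bin inside the window gave 56 and 37 loops in the p42 lists.

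Divided by expected contacts, the log2 ratio of contacts was 0.25 for p42 UT over p30 UT (0.76 by modelled contacts) and -0.12 for p42 LPS over p42 UT (0.12 by modelled contacts). For the loop in all 4 lists the latter was -0.15. Scaled by modelled contacts, the median log2 coverage ratio of start-site bins was 0.95 for p42 UT over p30 UT, 0.18 for p42 LPS over p30 LPS, 0.47 for p30 LPS over p30 UT and -0.17 for p42 LPS over p42 UT, against 0.76, 0.52, 0.26 and 0.15 by the peak-bin mean. The direction of the last therefore depends on the scaling.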
